A study of Mus musculus with 6 samples.

Results

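Antiviral interferon-stimulated genes (ISGs) encode proteins that cells make when interferon warns them of a virus. The set described here holds 36 mouse genes, chosen by gene symbol from a list of antiviral effectors, RNA sensors and their modifiers, out of 45777 genes in the deposited table. All 36 were found in the table, and all 36 passed the filter on low counts. The samples were cultured dorsal root ganglion (DRG) neurons, the sensory neurons beside the spinal cord, from C57BL/6 wild-type mice that the labels call female and 8 weeks old. In the ONCM group, 3 libraries came from cultures given recombinant oncomodulin, a small calcium-binding protein known to promote axon regrowth, at 100 ng/ml for 12 hours. In the PBS group, 3 libraries came from cultures given phosphate-buffered saline as the negative control. The labels call the libraries biological replicates without naming separate cultures or animals, so p-values here reflect only the variation among these libraries, which may be technical.

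Type I interferon binds its receptor IFNAR, and the kinases JAK1 and TYK2 then phosphorylate STAT proteins, STAT2 among them. With IRF9 these form a complex called ISGF3, which binds a DNA element, the interferon-stimulated response element (ISRE), in the promoters of ISGs. Their products bind viral RNA, degrade it, stop its translation or hold back virus particles, and several ISGs encode sensors or signalling proteins that feed back on the same pathway. Neurons and glia of the peripheral nervous system can both express ISGs.

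Total counts ran from 53770820 to 60291315 in the ONCM libraries and from 55920700 to 64477014 in the PBS libraries. Every member had at least 206 counts in every library, so the depth did not limit detection. The libraries were not alike in sex-linked transcripts. Xist, the RNA of the inactive X chromosome, stood at 413 to 513 CPM (counts scaled to the depth of the library) with ONCM and at 0.485 to 0.588 CPM with PBS. Ddx3y, on chromosome Y, stood at 15.1 to 16.9 CPM with ONCM and at 58.1 to 62.4 CPM with PBS. A chromosome Y transcript in both groups and the near absence of Xist with PBS go against the label of female mice. Treatment, sex and any other difference between the source cells therefore cannot be told apart for any result given here. The counts come from whole cultures, in which fewer cells of a type and less RNA per cell cannot be told apart.

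Before the values, the promoters show what many of these genes share in sequence, which the choice of members did not use. RefSeq promoter windows of build GRCm38.p6, from 250 bases before to 50 bases after a transcription start, were at hand for 26 of the 36 genes. The ISRE was searched as GAAANNGAAA on both strands, so that it also reads TTTCNNTTTC. At least 1 match was found in a window of 13 of these 26 genes (50%), against 1079 of 27025 genes with a window (3.99%). Among 55 genes of a wider ISG list, 28 held it (50.9%). The shorter GAS element, which binds STAT dimers and was searched as TTCNNNGAA, was in windows of 7 of the 26 genes (26.9%), against 9.55% of all genes and 5 of the 55 wider ISGs (9.09%). The stretches below are shown because they let the reader compare the ISRE letters across genes of different roles. Capitals mark the matched letters and lower case the 8 bases on either side, each written 5′ to 3′ on the strand of the gene.
Isg15: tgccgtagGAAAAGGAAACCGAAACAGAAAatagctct
Ifit1: agtctcagTTTCAGTTTCtcactgct
Ifit3: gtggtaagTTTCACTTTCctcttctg
Ifit3b: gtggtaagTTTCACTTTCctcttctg
Oas1a: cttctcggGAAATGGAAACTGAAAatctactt
Bst2: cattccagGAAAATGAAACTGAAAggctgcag
Rsad2: ggtccaacTTTCATTTTCagaaaaca
Stat2: caccctggTTTCAGTTTCctttccct

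The Isg15 stretch (chr4:156200867-156200904, minus strand) held 3 overlapping matches, and those of Oas1a (chr5:120907522-120907553, minus) and Bst2 (chr8:71537579-71537610, minus) held 2 each. The other stretches lie at chr19:34640796-34640821 for Ifit1, chr19:34583365-34583390 for Ifit3, chr19:34607761-34607786 for Ifit3b and chr10:128270268-128270293 for Stat2, all on the plus strand. That of Rsad2 lies at chr12:26456555-26456580 on the minus strand. In these 8 stretches the matched letters begin between 222 bases (Stat2) and 20 bases (Oas1a) before the start. Ifit1, Ifit3 and Ifit3b each hold a second match, and Oas3 holds 1 upstream, which are not printed. Matches of Eif2ak2, Ddx58 and Ifih1 begin 18, 2 and 32 bases after the start, and Trim30a has 1 match before the start in one window and 1 after it in another. Ifit3 and Ifit3b carry identical letters over the whole stretch shown. The whole Isg15 window (chr4:156200769-156201068, minus) shows where its matches sit, and its last 50 bases follow the start:
Isg15 promoter: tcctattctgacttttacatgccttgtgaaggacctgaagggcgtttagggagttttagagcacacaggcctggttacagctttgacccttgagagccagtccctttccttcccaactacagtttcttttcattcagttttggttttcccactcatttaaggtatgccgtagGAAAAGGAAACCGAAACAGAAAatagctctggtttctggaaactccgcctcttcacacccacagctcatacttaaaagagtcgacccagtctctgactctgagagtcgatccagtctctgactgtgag
The 13 genes with the letters had a median log2 fold change of 1.50 (0.68 for Eif2ak2 to 1.83 for Ifit3). The 13 genes without them had a median of 1.25 (0.22 for Adar to 2.11 for Ifi44). These ranges overlapped widely, and a match is only a run of letters, not a measured binding site. Windows of Ifi44, Xaf1 and Adar hold a pair of GAAA words, on either strand, at another spacing. The 13 genes without the exact letters are therefore not shown to lack an ISRE.

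The comparison of ONCM with PBS asked which transcripts differ after oncomodulin treatment. Of the 36 genes, 35 rose, 0 fell and 1, Ifi27, did not pass (edgeR quasi-likelihood test, Benjamini-Hochberg adjusted p under 0.05 over all 20354 tested genes). The background was high, since 23.9% of all tested genes rose and 24.4% fell, 48.3% in all. A rise of at least 2-fold was less common, at 6.18% of tested genes, and 26 of the 36 members reached it. At least 3-fold was reached by 8 members and by 3.00% of tested genes, and at least 4-fold by 1 member, Ifi44, and by 1.80% of tested genes. In 35 of 36 members every ONCM library was above every PBS library, as in 27.6% of tested genes, and 55.6% of tested genes had no overlap in either direction. The members' median log2 fold change was 1.30, against -0.0021 for all tested genes, and 22 members were among the 1000 largest log2 fold changes of the experiment. The summed level of the 36 genes was 3898, 3876 and 3908 CPM in the ONCM libraries and 1648, 1647 and 1688 CPM in the PBS libraries, a ratio of 2.34.

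**Figure D1:**
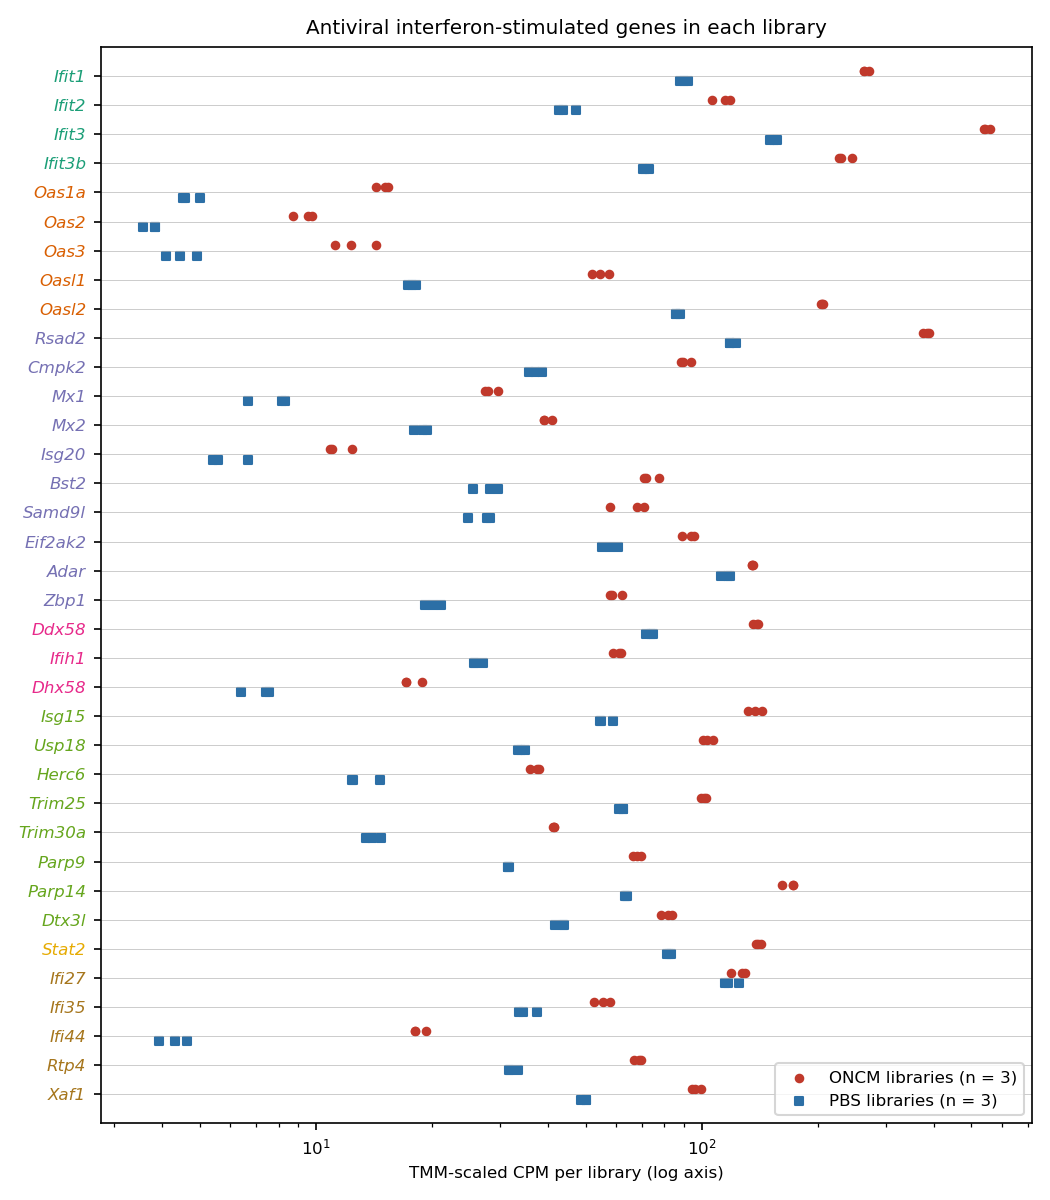
TMM-scaled CPM on a log axis for each of the 36 genes (rows, label colours by role), with 3 ONCM libraries as red circles above 3 PBS libraries as blue squares. The circles lie to the right of the squares for every gene other than Ifi27, where they overlap.

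The IFIT proteins are RNA-binding effectors, of which IFIT1 recognises the cap of foreign RNA and blocks its translation. All 4 members rose at least 2-fold. Ifit3 (chromosome 19, 34583119 to 34588982) had 540.1, 542 and 558 CPM with ONCM and 149.9, 154 and 156 CPM with PBS. The groups lay far apart, and within each group the libraries differed by little. This was a 3.56-fold rise (log2 fold change 1.83, SE 0.03, edgeR adjusted p = 2.15e-18). Ifit2 (chromosome 19, 34550550 to 34576534), which promotes cell death in some cells, had the smallest change of the family. It had 118, 115 and 106 CPM with ONCM and 43.8, 42.6 and 47.2 CPM with PBS, again without overlap (log2 fold change 1.34, SE 0.05, edgeR adjusted p = 4.48e-14). Ifit1 and Ifit3b rose 2.96-fold and 3.27-fold. Ifit3 and Ifit3b share 521 runs of 100 bases in GENCODE M21 transcripts, 31.7% and 27.4% of their own, so reads can pass between them and their separate values are uncertain. The 4 genes summed to 1159 ± 11.6 CPM with ONCM and 359 ± 4.05 CPM with PBS (SD, n = 3 each).

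The OAS enzymes make 2′-5′-linked oligoadenylates on binding viral RNA, small signalling molecules that lead to decay of RNA, while the related OASL proteins lack this activity or have it in altered form. All 5 members rose at least 2-fold. Oas1a (chromosome 5, 120896256 to 120907544) changed most, with 15.1, 14.3 and 15.4 CPM with ONCM and 4.58, 4.52 and 5.001 CPM with PBS. Its libraries did not overlap between groups (log2 fold change 1.67, SE 0.08, edgeR adjusted p = 2.89e-12). Oas1a shares 40.9% of its runs of 100 bases with Oas1g, which itself rose 3.06-fold, so the reads of these copies may be mixed. Oasl2 (chromosome 5, 114896926 to 114912245) had the highest level per length of the family and, on counts, the smallest change. It had 203, 205 and 207 CPM with ONCM and 85.7, 85.8 and 87.8 CPM with PBS (log2 fold change 1.25, SE 0.03, edgeR adjusted p = 5.75e-16). Oasl1, Oas3 and Oas2 rose 3.08-fold, 2.82-fold and 2.49-fold. The log2 fold change of Oasl1, 1.62, differed from that of Oas1a by less than the Oas1a SE. Oas2, at a log2 fold change of 1.32 (SE 0.09), lay within its SE of Oasl2, and on log2(TPM + 1) by limma Oas2 and Oas3 changed less than Oasl2, at 1.013 and 1.122 against 1.192.

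Among the 10 other effectors all rose, 7 of them at least 2-fold. Mx1 (chromosome 16, 97447035 to 97462906) encodes a dynamin-like GTPase that traps viral nucleoproteins, and C57BL/6 mice carry an allele that gives no functional protein. It had 29.6, 27.4 and 27.9 CPM with ONCM and 6.68, 8.31 and 8.15 CPM with PBS. This was the largest change of the group, at 3.68-fold (log2 fold change 1.88, SE 0.07, edgeR adjusted p = 3.10e-13). Rsad2 (chromosome 12, 26442743 to 26456452) encodes viperin, which makes a chain-terminating nucleotide, and had the highest level of the group per length. It had 383, 388 and 375 CPM with ONCM and 118, 119 and 123 CPM with PBS, with wide separation between the groups (3.19-fold, log2 fold change 1.67, SE 0.03, edgeR adjusted p = 8.53e-18). Cmpk2, the mitochondrial nucleotide kinase encoded beside it, rose 2.45-fold. Zbp1, a sensor of Z-form nucleic acid that can start necroptosis, rose 2.96-fold, and Bst2, the tetherin that holds budding virions at the cell surface, rose 2.64-fold. Samd9l, a restriction factor of poxviruses, rose 2.43-fold, and Mx2, the paralog of Mx1, rose 2.11-fold. Isg20, a 3′ to 5′ exonuclease, and Eif2ak2, the RNA-activated kinase PKR, rose 1.94-fold and 1.61-fold.

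Adar (chromosome 3, 89714469 to 89753455), which deaminates adenosine in RNA and has both a constitutive and an interferon-inducible promoter, showed the smallest rise. It had 135, 135 and 136 CPM with ONCM and 117, 119 and 112 CPM with PBS. The groups did not overlap, but the difference was small (log2 fold change 0.22, SE 0.03, edgeR adjusted p = 1.31e-05) and lay below the upper quartile of all tested genes, a log2 fold change of 0.235. In GENCODE M21, exons of Chrnb2, a nicotinic receptor gene on the opposite strand, cover 16.8% of the Adar exon bases. By the RefSeq coordinates Chrnb2 starts at 89753448, only just before the end of Adar. Chrnb2 itself fell by 0.12 on the log2 scale. Neither the annotation counted nor the use of strand is given, so part of these reads may belong to the neighbour.

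The 3 RNA sensors of the RIG-I family all rose. Dhx58 (chromosome 11, 100694884 to 100704271) encodes LGP2, which tunes the other sensors. It had 17.2, 17.2 and 18.9 CPM with ONCM and 7.41, 7.54 and 6.39 CPM with PBS (log2 fold change 1.32, SE 0.08, edgeR adjusted p = 6.83e-11). Ifih1, the MDA5 gene, whose product detects long RNA duplexes, rose 2.31-fold. Ddx58 (chromosome 4, 40203777 to 40239825) encodes RIG-I, which detects RNA with a 5′ triphosphate, and was the most abundant of the family per length but changed least. It had 139, 139.7 and 136 CPM with ONCM and 74.0, 74.9 and 71.9 CPM with PBS (1.88-fold, log2 fold change 0.91, SE 0.03, edgeR adjusted p = 1.23e-13). Their adaptor gene Mavs did not pass, at 17.3 CPM with ONCM and 18.1 CPM with PBS.

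ISG15 is a ubiquitin-like protein that is attached to other proteins by the enzymes UBA7 and UBE2L6 and, in mice, the ligase HERC6, and removed by USP18. All 5 genes of this cycle rose. Isg15 (chromosome 4, 156199424 to 156200818) had 132, 138 and 143 CPM with ONCM and 54.8, 54.5 and 58.9 CPM with PBS. The groups were well apart (2.45-fold, log2 fold change 1.29, SE 0.04, edgeR adjusted p = 1.42e-14). Usp18 (chromosome 6, 121245906 to 121270917), which also blocks signalling at the interferon receptor, changed most among the modifiers. It had 103, 101 and 107 CPM with ONCM and 34.8, 33.9 and 33.4 CPM with PBS (3.04-fold, log2 fold change 1.60, SE 0.04, edgeR adjusted p = 3.07e-16). Herc6 rose 2.82-fold, with 10.3% of its runs of 100 bases shared with Gm45193, while Uba7 and Ube2l6, which are not in the 36, had log2 fold changes of 1.36 and 0.71.

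Among the remaining modifiers, Trim25 (chromosome 11, 88999403 to 89020294), a ubiquitin ligase that acts on RIG-I signalling, rose least. It had 101, 102 and 99.4 CPM with ONCM and 61.1, 62.6 and 62.5 CPM with PBS (1.63-fold, log2 fold change 0.70, SE 0.03, edgeR adjusted p = 5.35e-12). Trim30a, a mouse TRIM protein that restrains inflammatory signalling, rose 2.94-fold, with 4.41% of its runs of 100 bases shared with Trim30d, itself 3.32-fold higher. The Trim30a log2 fold change of 1.56 (SE 0.05) lay within its SE of that of Usp18. The ADP-ribosyltransferase genes Parp14 and Parp9 rose 2.66-fold and 2.16-fold, and Dtx3l, the ubiquitin ligase that partners PARP9, rose 1.89-fold. Parp9 and Dtx3l overlap on opposite strands over 9.40% and 8.00% of their exon bases. Stat2 (chromosome 10, 128270498 to 128292853), the only transcription factor of the set, had 140.3, 143 and 138 CPM with ONCM and 83.4, 82.1 and 81.3 CPM with PBS. Its groups did not overlap, and its change was smaller than that of most of the effectors (1.71-fold, log2 fold change 0.77, SE 0.03, edgeR adjusted p = 7.28e-13).

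The last 5 genes spread furthest apart. Ifi44 (chromosome 3, 151730922 to 151749910), an interferon-induced protein linked to restraint of cell growth, had the largest change of the whole set. It had 18.1, 18.1 and 19.3 CPM with ONCM and 4.30, 3.92 and 4.64 CPM with PBS (4.31-fold, log2 fold change 2.11, SE 0.08, edgeR adjusted p = 1.26e-13). Rtp4, a chaperone of taste and opioid receptors that also acts as an antiviral factor, rose 2.12-fold, with 9.28% of its runs of 100 bases shared with Gm45338. Xaf1, a partner of the apoptosis inhibitor XIAP, and Ifi35, a partner of NMI, rose 1.95-fold and 1.58-fold, and 16.8% of the Ifi35 exon bases lie under Gm11626 on the opposite strand. Ifi27 (chromosome 12, 103434189 to 103440245), a small membrane protein of mitochondria and the nuclear envelope, was the exception. It had 129, 119 and 127 CPM with ONCM and 115, 117 and 125 CPM with PBS, and the groups overlapped. The log2 fold change was 0.07, with an SE of 0.04 (edgeR adjusted p = 0.129). It became 0.11 without ONCM replicate 2 (edgeR adjusted p = 0.0433), and -0.02 on log2(TPM + 1) by limma (adjusted p = 0.743). Its relative Ifi27l2a rose by 1.15 on the log2 scale, at 3.19 CPM with ONCM and 1.45 CPM with PBS.

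**Figure D2:**
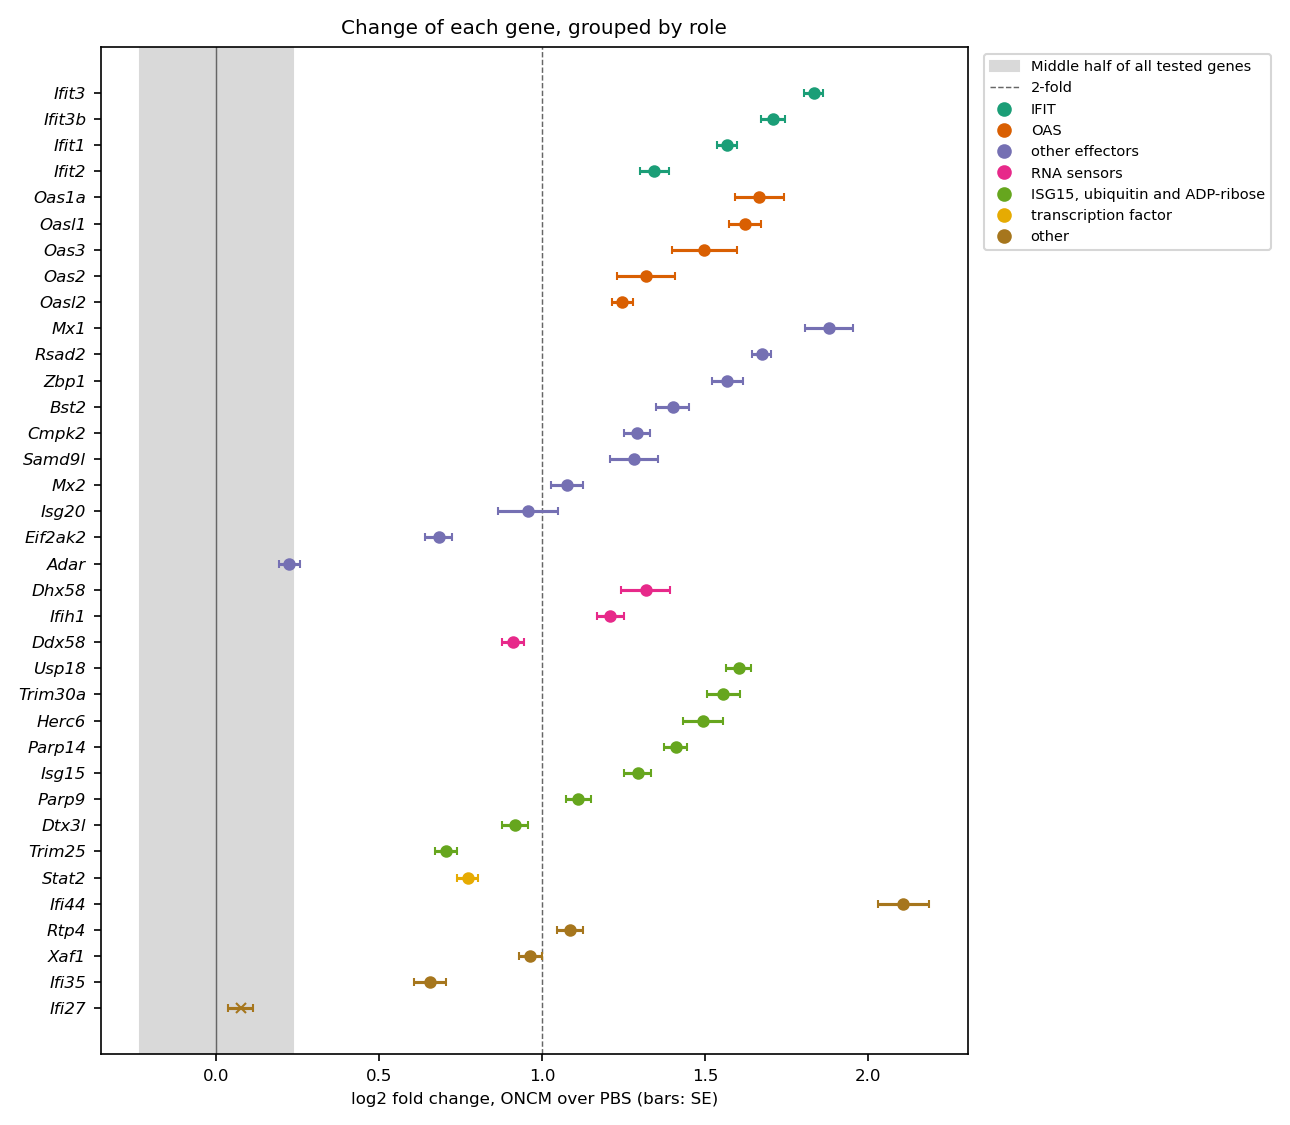
Log2 fold change of ONCM over PBS with its standard error for each gene, ordered within roles. The grey band marks the middle 50% of all tested genes, from -0.2326 to 0.235, in which only Adar and Ifi27 (cross, not passed) lie, and 26 genes lie at or beyond the dashed 2-fold line.

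The RNA level per transcript length, in the deposited TPM values (transcript counts scaled by length and depth), spanned a wide range and largely kept its order between the groups. With ONCM, Ifit3 led at 664 ± 4.42 TPM, followed by Isg15 at 442 ± 14.8 TPM, Ifi27 at 291 ± 11.4 TPM and Ifit3b at 276 ± 8.05 TPM, and the last 2 did not differ beyond their summed SDs. With PBS, Ifi27 led at 295 ± 8.85 TPM, ahead of Ifit3 at 195 ± 2.77 TPM and Isg15 at 188 ± 7.10 TPM, and the last 2 again did not differ beyond their summed SDs (n = 3 each). At least 100 TPM was reached by 11 members with ONCM and by 3 members with PBS. Oas2 was the lowest in both groups, at 4.61 ± 0.349 TPM with ONCM and 1.78 ± 0.256 TPM with PBS. Ifi44, the gene with the largest change, ranked 34 of 36 in both groups. Across the 36 genes, as a description, the log2 fold change had a Pearson r of -0.32 with the log2 PBS level and a Spearman rho of -0.18, with both axes sharing the PBS libraries.

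**Figure D3:**
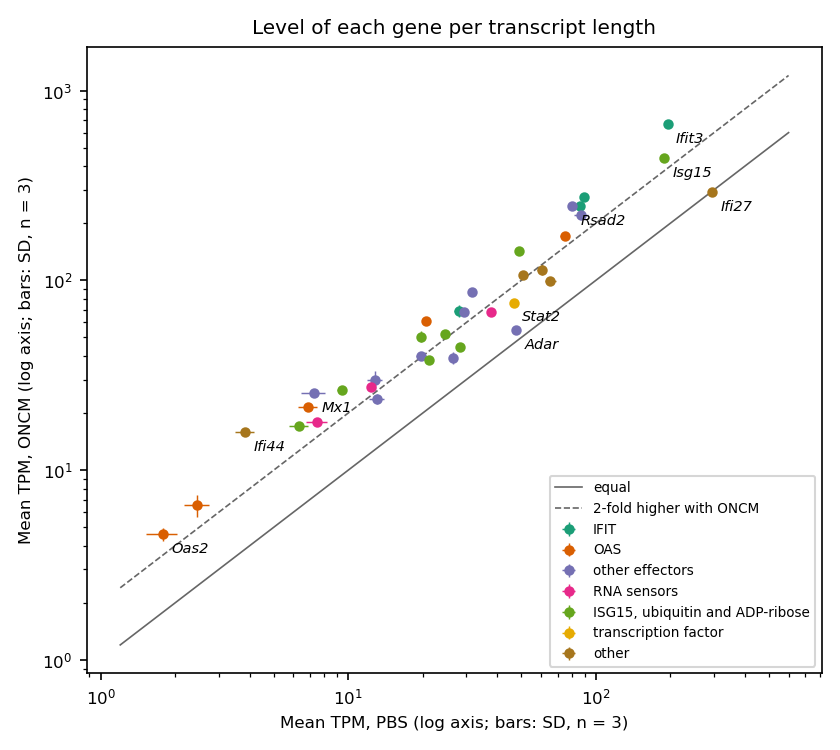
Mean TPM with ONCM against mean TPM with PBS on log axes, bars giving SD over 3 libraries, colours giving roles. Ifi27 lies on the line of equal levels at 291 TPM with ONCM and 295 TPM with PBS, and Ifi44, Oas2 and Ifit3 lie above the line of 2-fold higher levels.

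Several members are neighbours on a chromosome, yet differed in how far they rose. In each of 6 clusters the member with the largest log2 fold change was set against that with the smallest, as their CPM ratio within each library. Mx1 over Mx2 (chromosome 16, 97447035 to 97560901) was 0.722, 0.703 and 0.717 with ONCM and 0.344, 0.439 and 0.453 with PBS. The ratio was thus higher in all ONCM libraries, by 0.80 on the log2 scale. Ifit3 over Ifit2 averaged 4.85 ± 0.356 with ONCM and 3.45 ± 0.156 with PBS, and Parp14 over Dtx3l averaged 2.08 ± 0.112 with ONCM and 1.48 ± 0.0554 with PBS. Rsad2 over Cmpk2 averaged 4.22 ± 0.210 with ONCM and 3.24 ± 0.0815 with PBS. Oasl1 over Oasl2 averaged 0.267 ± 0.0121 and 0.205 ± 0.00787 in ONCM and PBS libraries, and Oas1a over Oas2 averaged 1.60 ± 0.145 and 1.26 ± 0.124 in ONCM and PBS libraries (SD, n = 3 each). In all 6 clusters the groups' ratios did not overlap, and the two-sided exact permutation p was 0.1 for each, before and after adjustment over the 6, which is the smallest that 3 against 3 libraries allow. The pairs were picked by their fold changes in the same libraries, so these ratios are a description.

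Upstream of the set, interferon transcripts were close to the detection limit. Ifnb1, the interferon beta gene (chromosome 4, 88522025 to 88522794), was counted 15, 26 and 20 times with ONCM and 10, 6 and 8 times with PBS. Its libraries did not overlap (log2 fold change 1.40, SE 0.41, edgeR adjusted p = 0.00839). Ifnb1 passed the count filter only through its higher ONCM libraries, so this p-value and the separation are no independent support for a rise. Of 21 interferon ligand genes, Ifnb1 and Ifnab alone passed the filter, Ifnab did not change detectably at 4 to 14 counts with ONCM and 6 to 12 counts with PBS, and 8 were at 0 in all 6 libraries. The ligands summed to between 0.573 and 0.866 CPM with ONCM and between 0.322 and 0.464 CPM with PBS.

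The 11 receptor and signalling genes had a median log2 fold change of 0.14, and 7 of them rose while 2 fell. For this list and the next ones, the shares over all tested genes were 23.9% risen and 24.4% fallen. Irf9, whose product partners STAT2 in ISGF3, had a log2 fold change of 0.58. Jak1 had 658 CPM with ONCM and 485 CPM with PBS, a log2 fold change of 0.44. Ifnlr1 and Ifngr1, receptor chains of interferon lambda and interferon gamma, fell by 0.95 and 0.15 on the log2 scale, while Ifnar1 and Tyk2 did not pass. Of 5 interferon regulatory factors 4 rose. Irf7, which amplifies interferon production, led them with 1.75 on the log2 scale, at 61.7 CPM with ONCM and 18.4 CPM with PBS. Irf5 and Irf1 rose by 1.34 and 0.59, and Irf3, which starts the response to viral RNA without being induced itself, fell by 0.25 on the log2 scale. Among 12 adaptors, kinases and receptors of nucleic acid sensing, 6 rose, 3 fell and 3 did not pass. The toll-like receptor genes Tlr3 and Tlr9 and the adaptor gene Myd88 had log2 fold changes of 1.48, 1.78 and 0.66. Aim2, Traf3 and Tbk1 fell, by 1.52, 0.34 and 0.11 in log2 units.

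A wider list of 63 other ISGs gave 59 raised, 1 lowered and 2 not passing among 62 tested, with a median log2 fold change of 1.12. Of all tested genes, 23.9% were raised and 24.4% lowered. Xdh, the xanthine oxidoreductase gene, Tor3a, a torsin ATPase gene, and Cd274, the gene of the checkpoint ligand PD-L1, had the smallest p-values, at log2 fold changes of 2.43, 1.66 and 1.38. Hsh2d and Ifitm1 did not pass, at log2 fold changes of 0.17 and 0.50.

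Markers of other cells were measured in the same libraries. Of 20 macrophage markers 19 rose and 1 did not pass, with a median log2 fold change of 1.89, above the 1.30 of the antiviral genes. Their summed level was 212 to 221 CPM with ONCM and 65.5 to 71.1 CPM with PBS, and none was at 0 in all libraries. C1qa, a complement C1q gene, had 9.42 to 10.6 CPM with ONCM and 1.24 to 1.78 CPM with PBS, and Adgre1, the gene of the surface protein F4/80, averaged 7.80 and 1.72 CPM in ONCM and PBS libraries. Of 12 T, B and NK cell markers, 4 were tested and 1, Cd8a, rose, as did 23.9% of all tested genes. The Cd8a libraries overlapped between the groups. The 12 markers summed to 2.27 to 2.96 CPM with ONCM and 2.13 to 2.72 CPM with PBS, with Ncr1 at 0 throughout. Of 8 dendritic cell markers, which include Bst2, 6 were tested, and Bst2, Clec9a and Zbtb46 rose, Flt3 fell and 2 did not pass, with a median log2 fold change of 0.79. Clec9a averaged 0.445 CPM with ONCM and 0.0445 CPM with PBS, where it was near the limit of detection. It passed the count filter only through its ONCM libraries. Zbtb46 averaged 21.5 CPM with ONCM and 16.0 CPM with PBS, and Flt3 averaged 19.6 CPM with ONCM and 25.4 CPM with PBS. The 7 markers other than Bst2 summed to 43.3 ± 0.739 CPM with ONCM and 43.0 ± 0.681 CPM with PBS (SD, n = 3 each), and Siglech, of plasmacytoid dendritic cells, averaged 0.0878 and 0.0179 CPM in ONCM and PBS libraries. The labelled cell type had clear markers, since 14 sensory neuron genes summed to 21176 ± 659 CPM with ONCM and 23492 ± 437 CPM with PBS (SD, n = 3 each), of which 3 rose, 9 fell and 2 did not pass. Schwann cell and satellite glia lists had median log2 fold changes of 0.01 and 0.03, and fibroblast and endothelial lists 0.25 and 0.26. Of 10 fibroblast and 10 endothelial markers, 6 and 7 rose and 0 fell. Among 10 Schwann cell markers 4 rose and 2 fell, and among 7 satellite glia markers 3 rose and 0 fell. All these marker counts stand beside 23.9% of all tested genes that rose and 24.4% that fell. The part of macrophages or any other cell type in the rise of the antiviral genes was not tested.

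**Figure D4:**
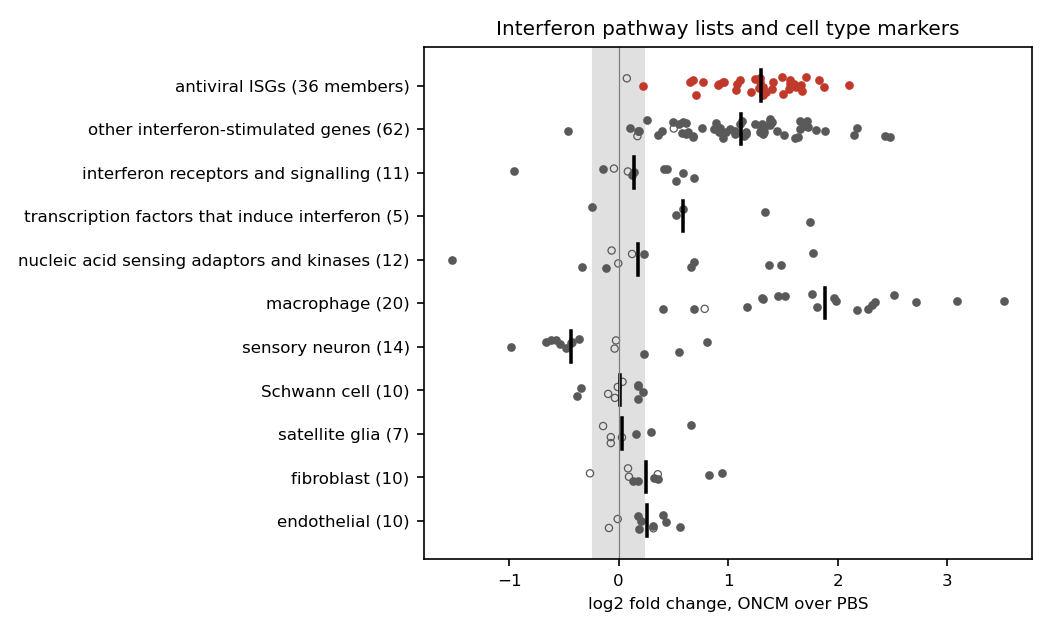
Log2 fold change of ONCM over PBS for each tested gene of the 36 (red), of the interferon pathway lists and of cell type marker lists, with black bars at the medians, filled points for genes that passed and open points for those that did not. The antiviral genes have a median of 1.30, the macrophage markers 1.89 and the sensory neuron markers -0.43, and the grey band is the middle 50% of all tested genes.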

How the data were processed

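RNA was measured in 3 ONCM and 3 PBS libraries. The authors deposited 1 table of 45777 genes with raw read counts, FPKM and TPM per library, per the file headers. Build mm10 is named in the submitters' processing notes, while the aligner, the counter and the use of strand are not given in these sources. The deposited counts were tested, the deposited TPM values gave levels per length and an alternative scale, and the deposited FPKM columns were not used. Counts were compared in R 4.3.3 with edgeR 4.0.16 (filterByExpr defaults, TMM, robust quasi-likelihood F-test, no covariate), with Benjamini-Hochberg adjustment over all 20354 tested genes. "Rose" and "fell" mean an adjusted p under 0.05, and the SE is the size of the log2 fold change over the square root of F. Alternatives used DESeq2 1.42.0 and limma 3.58.1. The code was tested on simulated counts. Within groups the chi-square per degree of freedom was 2.76 to 7.09, so no libraries were merged. Same-numbered libraries did not deviate together, so no pairing was used.

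All members are named. Values in every library are given for the largest and smallest change and the highest TPM in each role group, and for any member that did not pass. Pathway lists give up to 3 genes with the smallest p-values and those going against the majority, and further genes of a member's pathway or with overlapping sequence were named after their values were seen. The members and lists were chosen with earlier results of these data known. Coordinates, promoters and gene names come from RefSeq GRCm38.p6, the assembly of mm10, matched by Entrez number (45679 of 45777 genes), and transcripts and exons from GENCODE M21. The planned comparison of protein sequences was not made, and values of some genes of the pathway lists are not reported here.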

Additional observations from a re-analysis of the deposited data

How the results depend on the processing

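The 14 alternatives were DESeq2's size factors, DESeq2 itself, no count filter, a mean of at least 1 CPM, the replicate block, limma on 2 TPM scales, leaving out chromosomes X, Y and MT, and leaving out each library. Of 504 values for single genes, 501 kept their direction and their side of the threshold, 0 lost significance, 1 gained it (Ifi27 without ONCM replicate 2) and 2 changed sign (Ifi27 on log2(TPM + 1) at -0.0175 and on log2(TPM + 0.1) at -0.0176). Leaving out libraries gave 35 to 36 members raised, 26 to 27 raised at least 2-fold, 8752 to 9537 of all genes called and a median of 1.288 to 1.3132. The lowest counts of the 14 alternatives lay outside these ranges. They were 25 members raised at least 2-fold on log2(TPM + 1) and 8234 of all genes called by DESeq2 itself. The members' median was 1.318 at a mean of at least 1 CPM, 1.1739 on log2(TPM + 1) and 1.2391 on log2(TPM + 0.1), against 1.30. On log2(TPM + 1) the share of all calls that were rises was 39.7%, against 49.5% on counts. The summed ratio of 2.34 was 2.354 with DESeq2's size factors and, in alternatives chosen after seeing the data, 2.327 without TMM and 2.228 on TPM; leaving out libraries gave 2.334 to 2.363. The cause of these shifts was not tested. With the replicate block 9597 genes were called and 35 members rose. Same-numbered libraries had correlations of deviations of -0.045, -0.012 and 0.002, so the numbers are not taken as pairs.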
